A study of Mus musculus with 8 samples.

Results

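TRBV14 is the mouse T-cell receptor (TCR) β-chain variable segment known in antibody nomenclature as Vβ13, and it is the V segment of the transgenic Pmel-1 receptor, which recognizes the melanoma antigen gp100. The members described here were all rows of the β-chain libraries whose V segment was TRBV14, 2684 clonotypes of 60131 in 8 mice, or 2661 distinct nucleotide sequences of 59163. TRBV14 was 1 of 24 β-chain V segments listed. The endogenous CD8+ T (en-T) cells sequenced were sorted as CD8-positive and Thy1.1-negative from inguinal lymph nodes and spleen, a gate meant to leave out the transferred Thy1.1-positive Pmel-1 cells.

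All mice were female C57BL/6 animals of 6 to 8 weeks that carried B16F10 melanoma from an inoculum of 200000 cells. Lymphocytes were depleted in all of them with cyclophosphamide (CTX), 300 mg/kg on day 3, followed by 2000000 Pmel-1 cells on day 5 and 10000 IU of IL-2 daily for 3 days. The CTXpre group, 3 mice, had no further treatment, and the CTXpre/CD4post group, 5 mice, was also given 200 μg anti-CD4 antibody (clone GK1.5) weekly for 3 weeks from day 10. The cells were taken on day 25 and 100 ng of RNA per mouse was amplified, so both groups carry the lymphodepletion and the transferred cells, and no untreated mice were compared. Each β-chain library held exactly 10000 reads after down-sampling by the authors. Because a clonotype is counted in reads of RNA, more cells and more RNA per cell cannot be told apart.

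A β-chain gene is assembled in the thymus by joining 1 of many V segments to a D and a J segment, with bases trimmed from the ends and random bases inserted between them. The join encodes the third complementarity-determining region (CDR3), the loop of the receptor that makes most of the contact with the antigenic peptide. A clonotype is a distinct CDR3 nucleotide sequence with its V and J segments, and a clone that has divided holds many reads of 1 clonotype.

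TRBV14 lies on the plus strand of chromosome 6 of GRCm38, at chr6:41135145-41135616 in the GENCODE vM21 annotation, with 2 coding exon parts, chr6:41135167-41135215 and chr6:41135320-41135616. The end of the second part, chr6:41135601-41135616, holds the bases that enter the CDR3 and encodes the residues CASSF. TRBD1 lies at chr6:41533201-41533212, and TRBJ1-6, the J segment of the clonotype described next, at chr6:41535554-41535606. These germline ends are shown in lower case so that the joins below can be read against them where they use these segments.

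TRBV14 germline end: tgtgccagcagtttct

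TRBD1: gggacagggggc

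TRBJ1-6: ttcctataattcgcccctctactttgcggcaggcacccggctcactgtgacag

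The 4 TRBV14 clonotypes with the most reads are shown with the bases between the end of the V segment and the start of the J segment, as the aligner placed them, in capitals. The first, called the TRBJ1-6 clonotype here, was the sole nucleotide clonotype of any V segment found in all 8 mice. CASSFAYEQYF was the largest TRBV14 clonotype of any mouse, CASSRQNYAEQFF was large in 2 mice, and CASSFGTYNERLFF was the largest of CTXpre/CD4post mouse 1.

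TRBJ1-6 clonotype (TRBD1): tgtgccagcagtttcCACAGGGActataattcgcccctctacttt

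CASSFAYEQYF (no D assigned, TRBJ2-7): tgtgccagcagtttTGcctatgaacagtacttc

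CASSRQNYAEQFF (TRBD1, TRBJ2-1): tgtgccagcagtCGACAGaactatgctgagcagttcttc

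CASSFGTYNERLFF (TRBD1, TRBJ1-4): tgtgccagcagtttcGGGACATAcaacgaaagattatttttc

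Of the capitals in the TRBJ1-6 clonotype, 6 bases were assigned to TRBD1 and 2 were inserted bases, assigned to no segment.

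TRBV14 took 4.94%, 4.14% and 4.24% of the β-chain reads in CTXpre mice 1 to 3. In CTXpre/CD4post mice 1 to 5 it took 5.32%, 4.98%, 4.84%, 3.99% and 6.43%. The mean was 4.44% ± 0.436 (SD, n = 3) against 5.11% ± 0.885 (SD, n = 5), and the groups overlapped, with both the lowest and the highest of the 8 mice in the CTXpre/CD4post group (p = 0.393, Mann–Whitney U-test, exact and two-sided like all group tests that follow). The Wilson 95% interval was 5.97% to 6.93% in CTXpre/CD4post mouse 5 and did not reach the interval of any other mouse, the nearest of which, in CTXpre/CD4post mouse 1, was 4.90% to 5.78%. These intervals cover counting error only: without molecular identifiers, of which the methods give none, several reads can stem from 1 molecule by PCR. Across the 24 V segments TRBV14 ranked 8 by mean share of reads, 4.86% ± 0.789 (SD, n = 8), between TRBV29 at 5.13% ± 0.870 and TRBV4 at 4.82% ± 0.646, from which it did not differ beyond its spread.

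The reads of TRBV14 were also compared between the groups in a count model. In edgeR's quasi-likelihood test across 23 V segments, TRBV14 had a log2 fold change of 0.11 (SE 0.143, adjusted p = 0.568 by edgeR) for CTXpre/CD4post over CTXpre. None of the 23 segments passed the adjusted threshold of 0.05 (0.0%), with 4 (17.4%) under 0.05 before adjustment and 0 called by DESeq2. Scaled by the library totals alone, which are equal, the log2 fold change of TRBV14 was 0.20 in edgeR, and in DESeq2 it was 0.17. Without CTXpre/CD4post mouse 5 it was 0.02 in edgeR, and it was 0.21 without CTXpre mouse 1 and 0.20 without CTXpre/CD4post mouse 4. The V segments whose share of reads ran most like that of TRBV14 over the 8 mice were TRBV3 (Pearson's r = 0.678), TRBV2 (0.650) and TRBV29 (0.559), a description only, since shares of 1 library add up to a fixed total.

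By clonotypes instead of reads, TRBV14 varied less between mice. It held 4.53%, 4.23% and 4.25% of the clonotypes in the CTXpre mice and 4.68%, 4.59%, 5.12%, 3.74% and 4.57% in the CTXpre/CD4post mice, or 365, 361 and 336 clonotypes against 331, 382, 389, 261 and 259. The groups overlapped (exact Mann–Whitney p = 0.25). The share of reads stood above the share of clonotypes by 1.86 percentage points in CTXpre/CD4post mouse 5, and in the 7 other mice the difference lay between −0.276 and 0.636. The high read share of that mouse was thus not matched by its clonotype share, which was within the range of the others.

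**Figure D1:**
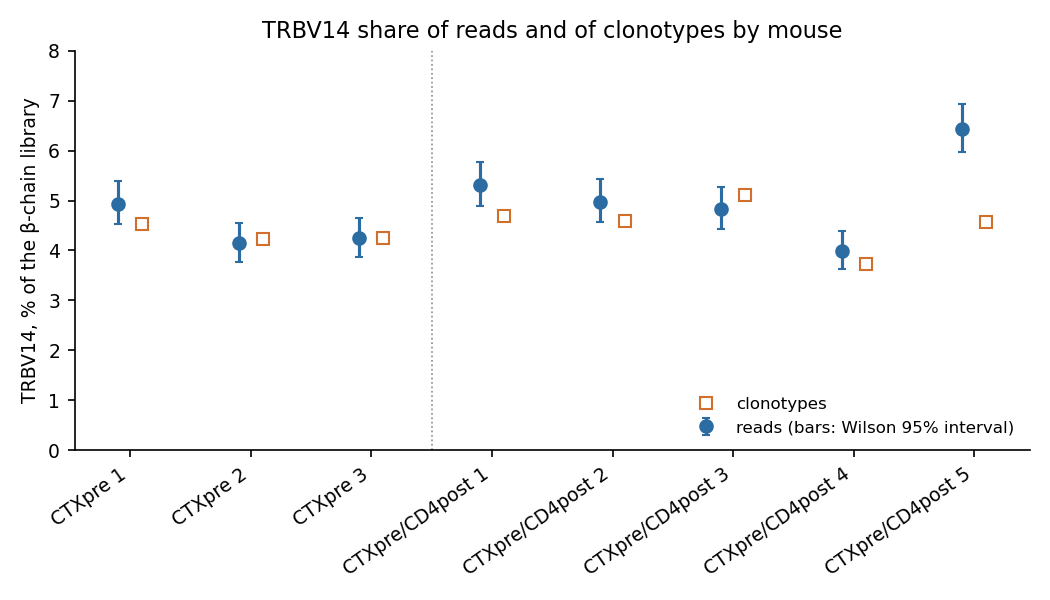
Share of TRBV14 among the reads (filled circles, with Wilson 95% intervals) and among the clonotypes (open squares) of each β-chain library, in percent, for the 3 CTXpre and 5 CTXpre/CD4post mice. Reads and clonotypes lie close together in all mice but CTXpre/CD4post mouse 5, where TRBV14 held 6.43% of the reads and 4.57% of the clonotypes.

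Most TRBV14 clonotypes were seen once: 2228 of 2684 (83.0%) had 1 read, from 73.7% in CTXpre/CD4post mouse 5 to 89.8% in CTXpre/CD4post mouse 2. Reads per TRBV14 clonotype were 1.35, 1.15 and 1.26 in the CTXpre mice and 1.61, 1.30, 1.24, 1.53 and 2.48 in the CTXpre/CD4post mice (exact Mann–Whitney p = 0.25). The groups overlapped, and CTXpre/CD4post mouse 5 stood above all others. That mouse was also the highest for the other V segments, with 1.73 reads per clonotype, and 77.6% to 89.4% of their clonotypes had 1 read. Shannon evenness within TRBV14, which is 1 when all clonotypes have equal reads, was 0.945, 0.991 and 0.966 against 0.904, 0.937, 0.978, 0.924 and 0.785. It was 0.967 ± 0.0227 (SD, n = 3) in CTXpre mice and 0.905 ± 0.0727 (SD, n = 5) in CTXpre/CD4post mice, with overlap (exact Mann–Whitney p = 0.143). Without CTXpre/CD4post mouse 5 the difference between the group means was −0.0319 in place of −0.0621 for evenness and 0.167 in place of 0.379 for reads per clonotype. Without the TRBJ1-6 clonotype it was 0.989 ± 0.00329 against 0.922 ± 0.0815 (SD, n = 3 and 5, exact p = 0.0714).

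Clonotypes of 10 or more reads, called expanded here, made up 0.671% of the TRBV14 clonotypes (18 of 2684) and 0.436% of all β-chain clonotypes. They numbered 1, 0 and 1 in the CTXpre mice and 3, 2, 1, 3 and 7 in the CTXpre/CD4post mice. The groups met at 1 clonotype (exact Mann–Whitney p = 0.0714). They held 9.31%, 0% and 6.60% of the TRBV14 reads in the CTXpre mice and 19.2%, 12.9%, 3.72%, 18.0% and 45.4% in the CTXpre/CD4post mice (exact Mann–Whitney p = 0.143). Without CTXpre/CD4post mouse 5 the difference between the group means was 8.14 percentage points in place of 14.5, and that in the number of expanded clonotypes 1.58 in place of 2.53. With the limit at 20 reads in place of 10, the difference in number was 1.33 (exact Mann–Whitney p = 0.304). At 5 reads it was 4.2 (exact Mann–Whitney p = 0.0714). Among all other V segments, expanded clonotypes held 3.11%, 1.74% and 2.14% of the reads against 7.34%, 2.88%, 7.61%, 8.75% and 22.0%.

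Both expanded TRBV14 clonotypes of the CTXpre group were the TRBJ1-6 clonotype. Without it, the CTXpre mice held 0 expanded TRBV14 clonotypes and the CTXpre/CD4post mice 2, 1, 0, 2 and 6, so that 4 of the 5 lay above the 3 CTXpre mice and mouse 3 was level with them (exact Mann–Whitney p = 0.125). Over all V segments, the TRBJ1-6 clonotype included, expanded clonotypes numbered 14, 8 and 8 in the CTXpre mice. In the CTXpre/CD4post mice they numbered 42, 17, 26, 52 and 95, all above the CTXpre mice, so the pattern was not particular to TRBV14. The 11 TRBV14 occurrences without the TRBJ1-6 clonotype were 10 distinct sequences with 10 to 123 reads. Their share of the remaining TRBV14 reads was 15.5%, 2.91%, 0%, 13.0% and 42.9% in the CTXpre/CD4post mice and 0% in each CTXpre mouse (exact Mann–Whitney p = 0.107). The largest TRBV14 clonotypes of the CTXpre mice besides the TRBJ1-6 clonotype held 9, 4 and 3 reads. At the limit itself, 1 clonotype of CTXpre mouse 1, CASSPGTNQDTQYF, had 9 reads, and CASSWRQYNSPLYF of CTXpre/CD4post mouse 5 had 10.

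CTXpre/CD4post mouse 5 held 6 of the 11 occurrences. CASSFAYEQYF alone had 123 reads there, 19.1% of its TRBV14 reads, followed by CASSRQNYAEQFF with 57 and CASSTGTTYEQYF with 41. In CTXpre/CD4post mouse 1 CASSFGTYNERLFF had 68 reads, 12.8% of the TRBV14 reads. In CTXpre/CD4post mouse 4 the largest was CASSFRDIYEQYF with 26 reads, and in mouse 2 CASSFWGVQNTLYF was the sole other expanded clonotype, with 13. Without CTXpre/CD4post mouse 5 the group mean of expanded TRBV14 clonotypes was 2.25 in place of 3.20, against 0.667 in the CTXpre group.

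**Figure D2:**
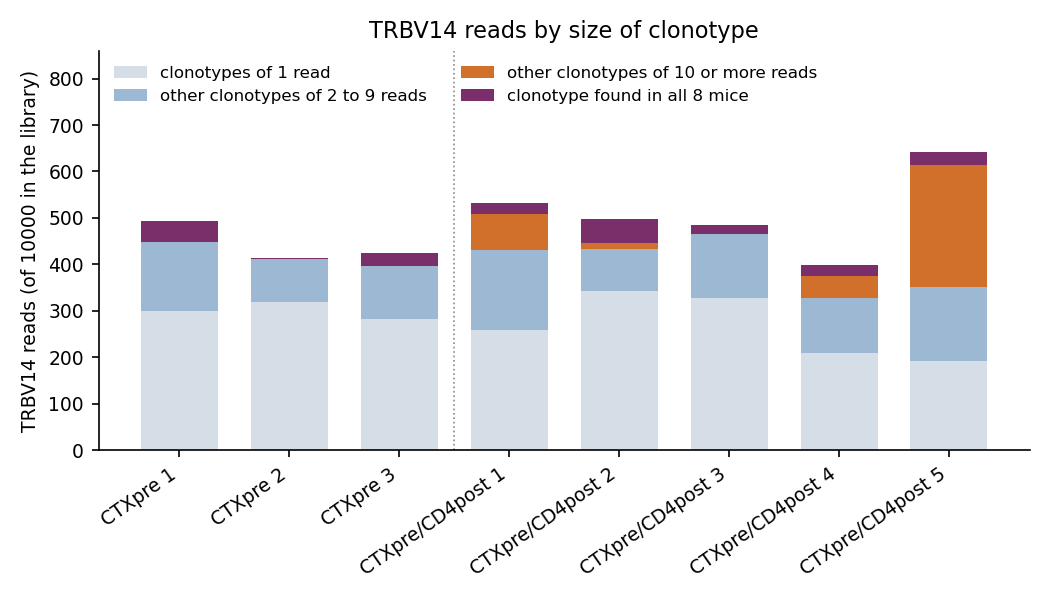
TRBV14 reads of each mouse, of 10000 in the library, stacked by the size of the clonotype they belong to, with the TRBJ1-6 clonotype, found in all 8 mice, drawn apart. The segment of other clonotypes with 10 or more reads is missing in the 3 CTXpre mice and in CTXpre/CD4post mouse 3, and it holds 264 reads in CTXpre/CD4post mouse 5.

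Against the V segments other than TRBV14 in the same mouse, expanded clonotypes were 0.764% ± 0.869 of TRBV14 clonotypes and 0.479% ± 0.518 of the rest (SD, n = 8), higher in 6 of 8 mice. In an exact two-sided sign-flip permutation test over the 8 mice, adjusted over the 19 V segments with at least 50 clonotypes in every mouse, this did not pass (adjusted p = 0.148), and 0 of the 19 segments were called (0.0%). Without the TRBJ1-6 clonotype the difference was 0.0168 percentage points in place of 0.285. It was 0.172 without CTXpre/CD4post mouse 5. Reads per clonotype, at 1.49 against 1.34, were higher for TRBV14 in 5 of 8 mice and did not pass either (adjusted p = 0.247 in the same permutation test, in which 26.3% of segments were called). That difference, 0.147 reads, was 0.0684 without the TRBJ1-6 clonotype and 0.0601 without CTXpre/CD4post mouse 5.

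The TRBJ1-6 clonotype had 46, 3 and 28 reads in the CTXpre mice and 23, 51, 18, 23 and 28 in the CTXpre/CD4post mice, 220 in all. It was at 0.03% of the library in CTXpre mouse 2, the 3 reads taken as the smallest count told from absence, and at 0.18% to 0.51% in the 7 others. It ranked 2 among all β-chain clonotypes in CTXpre mouse 1 and in CTXpre/CD4post mouse 2, and 56 in CTXpre mouse 2. It was the most abundant TRBV14 clonotype in 4 of the 8 mice. All 220 reads had 1 nucleotide sequence, and no TRBV14 sequence 1 base away from it was found in any library. It took 27.3% to 87.5% of the reads that joined TRBV14 to TRBJ1-6 in a mouse, and without it these reads numbered 14, 8 and 4 against 8, 9, 6, 12 and 23. The labels and methods give no sequence of the Pmel-1 receptor, so whether this clonotype is that receptor, and whether transferred cells or their RNA were among the sorted cells, was not tested.

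Besides this clonotype, 16 TRBV14 nucleotide sequences were found in 2 mice, 0 in 3 to 7 mice, and 2644 (99.4%) in 1 mouse. Of the sequences of the other V segments, 98.5% were in 1 mouse and 1.30% in 2, against 0.601% in 2 for TRBV14. Of the 16, 10 had 1 read in both mice. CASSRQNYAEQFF, shown above, had the same nucleotide sequence in CTXpre/CD4post mouse 4 (23 reads) and mouse 5 (57 reads), with 1 inserted base. It was the sole sequence of any V segment, other than the TRBJ1-6 clonotype, with 10 or more reads in both mice of any of the 28 pairs. The same bases were also listed with TRBV15 in place of TRBV14 in CTXpre mouse 3, with 1 read.

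CTXpre/CD4post mice 1 and 2 had 143 clonotypes of the other V segments in common, where the 27 other pairs had 19 to 51, so these libraries stand apart as a pair. They also had the most TRBV14 sequences in common besides the TRBJ1-6 clonotype, 4, where 17 of the 28 pairs had 0. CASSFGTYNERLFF was one of these 4, with 68 reads in mouse 1 and 4 in mouse 2. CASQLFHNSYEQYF, with 5 reads in mouse 1 and 1 in mouse 2, had 14 inserted bases, against a mean of 3.19 over TRBV14 sequences found in 1 mouse.

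Counted within each mouse, 0.822%, 2.22% and 1.19% of the TRBV14 clonotypes of the CTXpre mice were found in another mouse, and 2.42%, 1.83%, 0.257%, 1.92% and 1.54% of those of the CTXpre/CD4post mice. The groups overlapped widely (exact Mann–Whitney p = 0.786). With the sequences of CTXpre/CD4post mouse 1 left out of mouse 2, the mean of the CTXpre/CD4post group fell from 1.59% to 1.09%, below the 1.41% of the CTXpre group.

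In each mouse, TRBV14 clonotypes were found in another mouse less often than those of the remaining V segments. The mean was 1.52% ± 0.730 against 3.09% ± 0.739 (SD, n = 8), lower in 8 of 8 mice (adjusted p = 0.0186, exact sign-flip permutation test over 19 segments). A sequence shared between mice counts in each of them, so the 8 differences are not independent, and the p-value does not allow for this. The test was not rerun without the overlap of CTXpre/CD4post mice 1 and 2. In this test 57.9% of the 19 segments were called and 42.1% were called as lower, so a call for TRBV14 was near the background. By mean share TRBV14 ranked 16 of the 19. Without the TRBJ1-6 clonotype the difference was −1.87 percentage points, by amino acid sequence −3.70, and without CTXpre/CD4post mouse 3 −0.964. Over clonotypes of 2 or more reads alone it turned to 1.08 percentage points higher for TRBV14 (adjusted p = 0.0636, exact permutation test). That limit left 39 to 73 TRBV14 clonotypes a mouse. The TRBJ1-6 clonotype, with 3 or more reads in each mouse, was among them and counted as shared in all 8. The difference under this limit without the TRBJ1-6 clonotype was not computed, so the turn cannot be read as a trait of the other TRBV14 clonotypes.

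Amino acid sequences were shared further than nucleotide sequences. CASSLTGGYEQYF, joined to TRBJ2-7, was found in 4 mice with 5 reads in all and a different nucleotide sequence in each. The 4 sequences are given with the bases between V and J in capitals, to set them against the single form of the TRBJ1-6 clonotype.

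CTXpre mouse 2, TRBD1, 1 inserted base: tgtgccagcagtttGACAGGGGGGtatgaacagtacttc

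CTXpre mouse 3, TRBD2, 0 inserted bases: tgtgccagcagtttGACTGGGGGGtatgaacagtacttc

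CTXpre/CD4post mouse 1, TRBD2, 1 inserted base: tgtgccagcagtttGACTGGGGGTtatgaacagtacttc

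CTXpre/CD4post mouse 5, TRBD2, 1 inserted base: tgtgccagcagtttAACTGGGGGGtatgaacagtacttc

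These 4 forms kept the same 14 bases of TRBV14 and the same J bases, and differed only in the bases between V and J. Of the 2575 TRBV14 amino acid clonotypes, 80 (3.11%) were in 2 mice, 2 (0.0777%) in 3 mice, 1 in 4 and 1 in all 8. Of those of the other V segments, 4.07% were in 2 mice and 0.622% in 3.

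**Figure D3:**
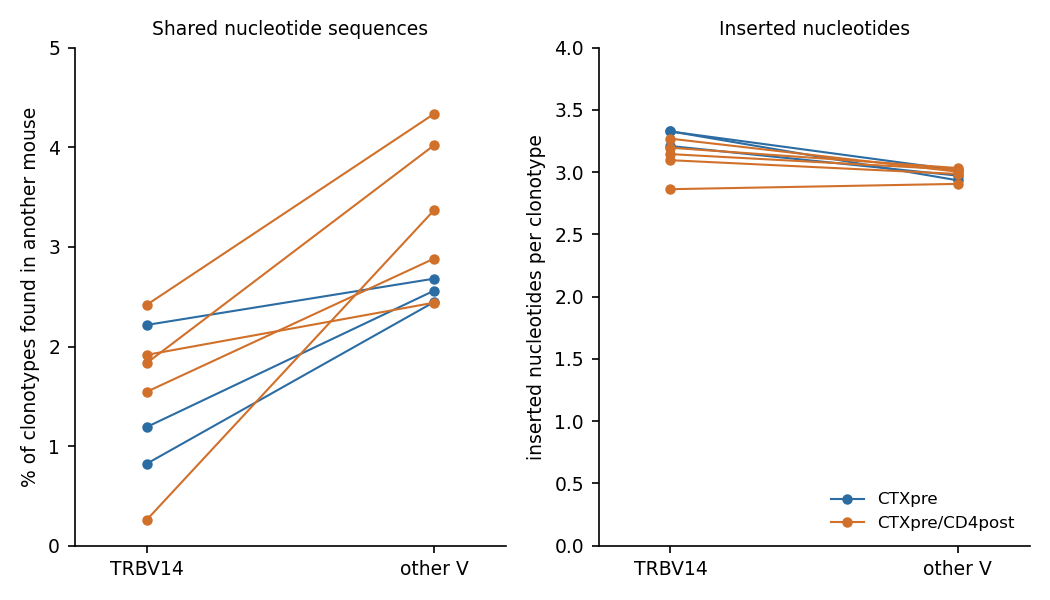
Left, percent of clonotypes whose nucleotide sequence was found in another mouse; right, mean number of inserted nucleotides per clonotype, for TRBV14 and for all other V segments. Each line joins the 2 values of 1 mouse, and TRBV14 was lower in 8 of 8 mice for sharing and higher in 7 of 8 for inserted nucleotides.

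Inserted bases, those that the aligner assigned to no segment, averaged 3.33, 3.21 and 3.33 per TRBV14 clonotype in the CTXpre mice and 3.10, 3.27, 2.86, 3.15 and 3.20 in the CTXpre/CD4post mice. The groups overlapped through mouse 2 of the CTXpre/CD4post group (exact Mann–Whitney p = 0.0714). The difference in means was −0.174 bases and turned to 0.502 without clonotypes of 1 read (exact Mann–Whitney p = 0.143). It was −0.112 without CTXpre/CD4post mouse 3. TRBV14 joins had 3.18 ± 0.152 inserted bases and those of the other V segments 2.98 ± 0.0445 (SD, n = 8), higher in 7 of 8 mice (adjusted p = 0.0297, exact sign-flip permutation test, 63.2% of segments called and 31.6% called as higher). The call was lost when any of 7 of the 8 mice was left out, with CTXpre/CD4post mouse 3 the exception. With each of the 8 mice left out in turn, the difference was 0.167 to 0.230 bases, against 0.196 over all 8. The adjusted p was 0.0371 to 0.0594 in this permutation test, whose smallest p doubles with 7 mice. Over reads the difference was 0.0149 bases and was not called (adjusted p = 0.990, same permutation test). Over clonotypes of 2 or more reads it was 0.121 and was not called either (adjusted p = 0.961, same permutation test). All these values rest on the segment ends placed by the aligner. In TRBV14 clonotypes, V ends matched the germline in 93.4% and J starts in 81.1%, and this match was not checked for the other V segments. Whether the placement of the ends adds to the difference was not tested.

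The TRBV14 end was trimmed to a varying degree. The aligner assigned 11 bases of the CDR3 to TRBV14 in 26.1% ± 2.54 of clonotypes, 14 in 20.4% ± 1.78, 16, the length of the germline end shown above, in 5.08% ± 1.63, and 17, 1 more than that end, in 1.23% ± 0.535 (SD, n = 8). The residue that the untrimmed end encodes at CDR3 position 5, phenylalanine, stood there in 29.9% ± 2.55 of TRBV14 clonotypes and in 2.74% ± 0.315 of those of other V segments. Leucine followed in TRBV14 with 18.6% ± 1.22, and proline with 14.8% ± 1.49. Of the 10 other expanded sequences, 4 began with CASSF.

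The CDR3 of TRBV14 clonotypes was shorter than that of the other V segments, at 13.6 ± 0.0836 against 13.9 ± 0.0273 residues (SD, n = 8). The difference was −0.247 residues, lower in 8 of 8 mice (adjusted p = 0.0124, exact sign-flip permutation test). Segments commonly differed in this measure, since 78.9% of the 19 were called and 42.1% were called as lower, and TRBV14 ranked 16 of 19 by mean length, between TRBV15 at 13.7 and TRBV13-3 at 13.6. CDR3s of 13 residues made up 22.3% ± 2.80 of TRBV14 clonotypes against 18.7% ± 0.533 of the others. Those of 16 residues made up 5.75% ± 0.787 against 9.32% ± 0.401, and those of 17 or more 1.19% ± 0.359 against 3.04% ± 0.264. The call held without the TRBJ1-6 clonotype, whose CDR3 has 15 residues, at −0.251 residues (adjusted p = 0.0124, same permutation test). Without clonotypes of 1 read the difference was −0.137 residues and was still called (adjusted p = 0.0212, same permutation test).

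Between the groups, the mean length of TRBV14 CDR3s over clonotypes was 13.65 ± 0.0447 (SD, n = 3) in CTXpre mice and 13.64 ± 0.106 (SD, n = 5) in CTXpre/CD4post mice (exact Mann–Whitney p = 1). Over reads it was 13.76, 13.61 and 13.79 against 13.79, 13.74, 13.68, 13.57 and 13.16 (exact p = 0.571 in the same test). The lowest, CTXpre/CD4post mouse 5, was the mouse in which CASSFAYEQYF, with 11 residues, had 123 reads, and CDR3s of 11 residues held 21.6% of its TRBV14 reads. Over clonotypes that same mouse had the highest mean length, 13.79.

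**Figure D4:**
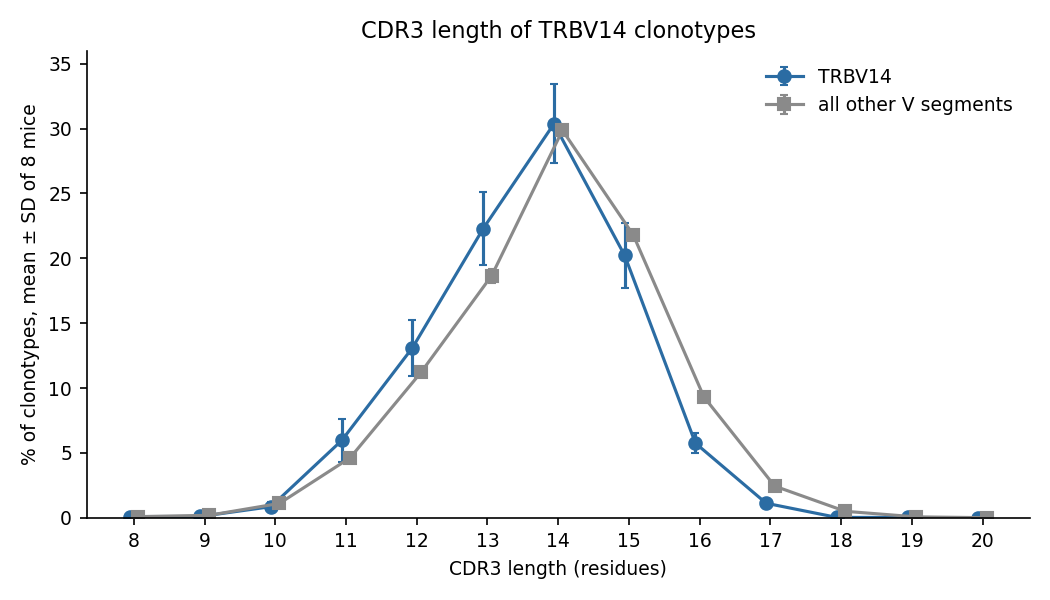
Percent of clonotypes with each CDR3 length from 8 to 20 residues, for TRBV14 (circles) and for all other V segments (squares), as mean ± SD of 8 mice. The TRBV14 curve lies above the other at 11 to 13 residues and below it at 15 to 18, as in the 5.75% against 9.32% at 16 residues.

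TRBV14 was joined to all 12 TRBJ segments found in these libraries. TRBJ2-7 was its most frequent partner, in 24.6% ± 1.79 of clonotypes, followed by TRBJ2-5 with 14.1% ± 2.23 and TRBJ2-1 with 14.0% ± 2.15 (SD, n = 8), and the last 2 did not differ beyond their spread. TRBJ1-5 was the least frequent, with 1.66% ± 0.646. Segments of the TRBJ1 cluster, which lies between TRBD1 and TRBD2, were joined in 22.7%, 27.4% and 16.4% of TRBV14 clonotypes of the CTXpre mice and in 22.4%, 21.7%, 20.8%, 27.2% and 27.8% of those of the CTXpre/CD4post mice (exact Mann–Whitney p = 1). Without clonotypes of 1 read the mean share was 14.2% in CTXpre mice and 29.5% in CTXpre/CD4post mice (exact Mann–Whitney p = 0.0357, the smallest this test can give), 15.3 percentage points higher, against 1.80 over all clonotypes. These shares rest on 39 to 73 clonotypes a mouse, and the other V segments had 26.7% and 29.8% under the same limit. Adjusted over the 11 measures compared between the groups under that limit, it did not pass (adjusted p = 0.224, exact Mann–Whitney tests). With the replicate block the difference over all clonotypes was −0.542 percentage points. It was −1.10 without CTXpre mouse 3 and 4.43 without CTXpre mouse 2. Among the other V segments of the same mice the TRBJ1 share was 28.2% to 31.9%, above that of TRBV14 in every mouse, a difference for which no test was run.

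Of the 12 partners, 2 passed the test, both lower in TRBV14 than in the other V segments. TRBJ1-2 was in 2.19%, 3.60% and 1.79% of TRBV14 clonotypes in the CTXpre mice and in 2.11%, 1.57%, 1.54%, 3.07% and 2.32% in the CTXpre/CD4post mice, where the other V segments had 5.15% to 5.86%. The ranges did not overlap, and the mean difference was −3.18 percentage points, lower in 8 of 8 mice (adjusted p = 0.0396, exact sign-flip permutation test over 228 V-J pairs). TRBJ1-3 was in 2.72% ± 0.578 of TRBV14 clonotypes and 4.14% of the others, lower in 8 of 8 mice as well (adjusted p = 0.0396, same permutation test). Over the 228 pairs 19.7% were called and 11.8% were called as lower, and 2 of the 12 TRBV14 pairs lie near that background. When any 1 mouse was left out, neither was called, with adjusted p from 0.0660 to 0.0742 in this permutation test, whose smallest p doubles with 7 mice. The differences were then −3.36 to −3.06 percentage points for TRBJ1-2 and −1.57 to −1.24 for TRBJ1-3, and over reads they were −3.47 and −1.88 (adjusted p = 0.0594 for either, same permutation test). TRBJ2-7 was higher by 2.83 percentage points in 7 of 8 mice and was not called (adjusted p = 0.0614, same permutation test).

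**Figure D5:**
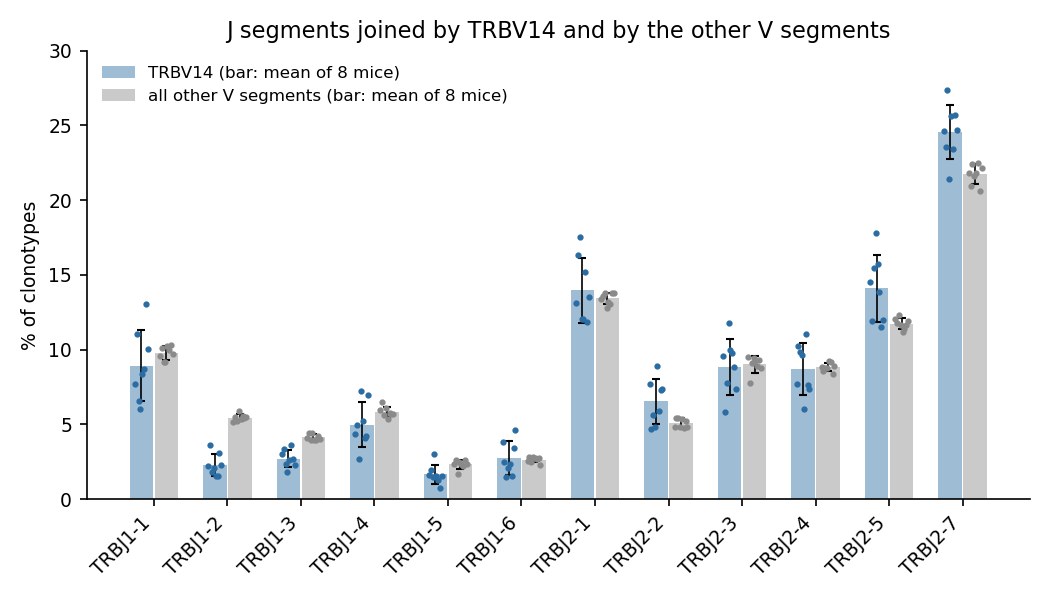
Percent of clonotypes joined to each of the 12 TRBJ segments, for TRBV14 and for all other V segments. Bars are means of 8 mice with SD, and dots are single mice. At TRBJ1-2 the TRBV14 dots, 1.54% to 3.60%, lie below all those of the other V segments.

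Reads shifted the order of the partners where 1 clonotype was large. TRBJ1-6 was in 2.74% ± 1.13 of TRBV14 clonotypes, close to the 2.63% of the other V segments, but held 12.1%, 2.66% and 7.55% of the TRBV14 reads in the CTXpre mice and 5.83%, 12.0%, 4.96%, 8.77% and 7.93% in the CTXpre/CD4post mice. Most of these reads were the TRBJ1-6 clonotype in 7 of the 8 mice, CTXpre mouse 2 being the exception. TRBJ1-4 held 19.5% of the TRBV14 reads in CTXpre/CD4post mouse 1, where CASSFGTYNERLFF had 68 of its 104 reads, and 2.59% to 5.75% in the 7 others. TRBJ2-7 held 40.7% in CTXpre/CD4post mouse 5, the mouse with 123 reads of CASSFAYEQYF, and 18.8% to 27.6% in the others.

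In edgeR's test of the reads of 208 V-J pairs between the groups, 10 TRBV14 pairs had enough reads and 0 were called, as was 0 of the 208 (0.0%, with 15 (7.21%) under 0.05 before adjustment and 0 called by DESeq2). TRBV14 with TRBJ1-4 had the one unadjusted p under 0.05 among the 10, with a log2 fold change of 1.33 (SE 0.566, adjusted p = 0.623 by edgeR) and the 104 reads of CTXpre/CD4post mouse 1 behind it. TRBV14 with TRBJ1-6 had a log2 fold change of 0.23 (SE 0.428, adjusted p = 0.865 by edgeR), which was 0.91 without CTXpre mouse 1, −0.20 without CTXpre mouse 2 and 0.47 without the TRBJ1-6 clonotype.

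TRBD1 was assigned in 42.2%, 46.8% and 39.9% of TRBV14 clonotypes of the CTXpre mice and in 40.3% to 48.8% of those of the CTXpre/CD4post mice, and no D could be assigned in 19.8% to 29.1%. The segment pair of the invariant α-chain of natural killer T cells, TRAV11 with TRAJ18, held 0.02% to 0.25% of the α-chain reads of the same mice. That of mucosal-associated invariant T cells, TRAV1 with TRAJ33, held 0% to 0.06%. These shares are given by segment pair, so other joins of the same segments can be among them. These libraries hold receptor chains alone, so markers of CD8+ T cells or of Thy1.1 could not be read from them.

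Over the 11 measures of TRBV14 compared between the groups, the exact Mann–Whitney p adjusted by the Benjamini-Hochberg method was 0.393 to 1. With 3 mice against 5 the smallest p this test can give is 0.0357, so a comparison that missed 0.05 does not show that the groups were alike.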

How the data were processed

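TCR α-chain and β-chain libraries of en-T cells from 3 CTXpre and 5 CTXpre/CD4post mice were grouped by their labels. The authors trimmed reads, aligned them in MiXCR (version not given in the sources used here), extracted clonotypes with VDJtools and down-sampled each library. The deposited values are read counts per clonotype, 10000 per library. The deposited fraction is the count over that total and was not used separately, and deposited segment positions, a plain coordinate unit, gave inserted bases. The submitters' processing notes name mm10. V ends matched the germline in 93.4% of TRBV14 clonotypes and J starts in 81.1%. Why the rest did not match was not tested.

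The members, lists and rules were chosen with earlier results of these data known. Named clonotypes were those most abundant in a mouse, in 4 or more mice, or with 10 or more reads. Outside this rule, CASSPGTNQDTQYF was named for lying next to the limit and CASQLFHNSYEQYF for its inserted bases. Measures were computed in Python 3.11.15 (numpy 2.4.6, pandas 2.3.3, scipy 1.17.1) and compared by exact Mann–Whitney tests over 56 splits. TRBV14 was set against other V segments by exact sign-flip tests over 256 sign patterns, adjusted over 19 segments or 228 V-J pairs. In these, a call needs at least 3 segments, or 36 pairs, at the smallest p of 0.0078, so a miss does not show that there was no difference. Reads per V segment and V-J pair (10 or more reads in 3 or more mice) were compared in edgeR 4.0.16 (R 4.3.3), with DESeq2 1.42.0 as an alternative. Scripts were tested on simulated data. Germline sequences came from GRCm38 by segment name. Alternatives covered clonotypes by amino acid sequence, leaving out those of 1 read or the clonotype found in all 8 mice, the limit for expanded clonotypes, scaling, replicate block and each mouse left out.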

Additional observations from a re-analysis of the deposited data

How the results depend on the processing

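The exact group comparisons of TRBV14 missed 0.05 under all alternatives but 1, and the replicate block, over 3 pairs, cannot go below 0.25. Without clonotypes of 1 read, the TRBJ1 share was 15.3 percentage points higher in the CTXpre/CD4post group (exact Mann–Whitney p = 0.0357, 0.224 when adjusted over 11 measures). Directions turned for length over clonotypes with CDR3s from C to F or W only (0.00126 residues), for inserted bases without clonotypes of 1 read (0.502), and for the shared percentage by amino acid sequence (−0.365 points) and with the sequences of CTXpre/CD4post mouse 1 left out of mouse 2 (−0.318). The replicate numbers did not pair the mice: same-numbered mice had correlations of 0.193, −0.299 and −0.209 in their deviations over 19 V segments. With the replicate block, length over reads (0.0160 residues) and the TRBJ1 share (−0.542 points) turned, and edgeR called 1 V segment, not TRBV14. Against other V segments, sharing turned without clonotypes of 1 read (1.08 points), a limit that kept the clonotype found in all 8 mice. The excess of inserted bases was not called without clonotypes of 1 read (0.121) or over reads (0.0149), and 0 J partners were called in either. With the limit for expanded clonotypes at 20 reads, the differences were 1.33 clonotypes and 11.5 points of reads (exact Mann–Whitney p = 0.304 and 0.161). At 5 reads they were 4.2 and 16.1 (exact Mann–Whitney p = 0.0714 and 0.143). An alternative chosen after seeing the data, expanded from 5 reads and without the clonotype found in all 8 mice, gave differences of 3.87 clonotypes and 16.5 points of reads (exact Mann–Whitney p = 0.0714 for either). The causes were not tested.

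With 1 mouse left out at a time, the ranges were 0.343 to 0.953 points (share of reads), 0.0583 to 0.403 (share of clonotypes), 0.167 to 0.477 (reads per clonotype), −0.0802 to −0.0319 (evenness), 8.14 to 18.6 points (reads in expanded clonotypes), 1.58 to 3.08 (number of expanded clonotypes), −0.0429 to 0.0256 residues (length over clonotypes), −0.187 to −0.0266 (length over reads), −0.214 to −0.112 (inserted bases), −0.110 to 0.587 points (shared) and −1.10 to 4.43 points (TRBJ1 share). These designs cannot pass 0.05. For edgeR the range was 0 to 3 V segments (3 without CTXpre/CD4post mouse 3, none of them TRBV14), 0 to 0 V-J pairs and a log2 fold change of 0.02 to 0.21 for TRBV14. Against other V segments it was −0.270 to −0.230 residues (length), 0.167 to 0.230 (inserted bases), −1.68 to −0.964 points (sharing), 0.0601 to 0.178 (reads per clonotype), 0.172 to 0.340 points (expanded) and 0 to 0 J partners, for which 7 mice would need 72 of the 228 pairs at their smallest p.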
